A study of Homo sapiens with 11 samples.

Results

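The SLC7 amino acid transporters and the carriers that work beside them were followed in 2 human lung adenocarcinoma cell lines. The cells carried an empty vector or one for TRIM58, a member of the tripartite motif family of E3 ubiquitin ligases. The set held 10 of the 20249 genes that the array's probes name through RefSeq, read by 12 of its 42405 probes. The genes were SLC7A1, SLC7A2, SLC7A5, SLC7A6, SLC7A7, SLC7A8, SLC7A11, SLC3A2, SLC1A5 and SLC38A2, and every probe of each was used. They were selected on the array values of all 4 groups described here, with earlier results of the same arrays known. Their levels and fold changes are therefore descriptions of these arrays, and the adjusted p-values printed for them come from the fit over all probes and are no independent test.

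Amino acids cross the plasma membrane through carriers of several families, and the SLC7 family has 2 branches. SLC7A1 and SLC7A2 are glycoproteins that take up arginine, lysine and ornithine by themselves. SLC7A5, SLC7A6, SLC7A7, SLC7A8 and SLC7A11 are light chains, which reach the cell surface only when joined by a disulfide bond to the heavy chain encoded by SLC3A2 (CD98). The light chains are exchangers, so each amino acid that enters is paid for by another that leaves. SLC1A5 and SLC38A2 bring in glutamine and other small neutral amino acids, which the exchangers can use. Tumour cells of the lung often carry high amounts of the leucine carrier SLC7A5 and of the cystine carrier SLC7A11, and several of these genes are induced by the transcription factor ATF4 when amino acids run short.

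A549 and HCC827 are established lung adenocarcinoma lines. The cells of each had been infected with a retroviral vector and selected with G418, and carried either the empty vector (mock) or a FLAG-tagged wild-type TRIM58 coding sequence (TRIM58-WT). A549 had 3 mock cultures, of which the first was read on 2 arrays (1-1 and 1-2, averaged to 1 replicate), and 3 TRIM58-WT cultures. HCC827 had 2 cultures of each kind. The study's methods describe isolated clones, and its description of the HCC827 cells speaks of crude transfectants. A difference between TRIM58-WT and mock A549 cells can thus hold differences between clones, which cannot be told apart from those of TRIM58. Nothing in the labels says that replicates of one group came from separate infections, so p-values measure the spread between these samples only. A change in bulk RNA can come from fewer cells with a transcript or from less of it per cell, which cannot be told apart either. Levels are log2 intensities relative to the 75th percentile of the array, so 0 is that percentile.

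Several arrays stood apart. The TRIM58 probe was at background on each TRIM58-WT array of both lines and well above it on A549 mock 3 alone (-0.71, against -5.33 to -5.18 on the other A549 mock arrays). The position of this probe relative to the coding sequence in the vector was not analysed here. Mock 3, TRIM58-WT 2 and TRIM58-WT 3 of A549 had a 75th percentile of 56.6 to 62.5 intensity units, against 90.5 to 103 on the other 4 A549 arrays and 108 to 125 in HCC827. TRIM58-WT 2 and 3 differed by a median of 0.11 on the log2 scale over 13887 probes, close to the 0.10 between the pair of arrays of mock cell 1, whereas TRIM58-WT 1 differed from each by 0.45. The 3 dim A549 arrays, together with mock array 1-2, lay on a slide of their own. Over all arrays, 40.1% to 49.99% of probes were well above background, and no spot was saturated. Of 8 epithelial markers, 7 were read above background on each A549 mock array and all 8 on each HCC827 array. In A549 TRIM58-WT 5 of the 8 were. Of the 7 tested in A549, EPCAM, KRT8, KRT19 and ELF3 were called lower in TRIM58-WT. KRT7 went the other way, at 9.47 in mock and 9.72 in TRIM58-WT, and was not called. Of 7 mesenchymal markers 4 were tested in A549 and 1 was called, CDH2, higher in TRIM58-WT. In HCC827 4 of them were tested and 1 was called, lower in TRIM58-WT. Of 11 markers of blood, vessel and stromal cells, 7 or 8 were not well above background on any array of a group. Of those that were read, the monocyte marker CD14 was called lower in A549 TRIM58-WT, at -2.22 against 0.84 in mock (-3.06, adjusted p = 0.00153), where 1 of 3 arrays read it above background. The stromal marker LUM was read on 3 of the 4 A549 mock arrays and on 0 of 3 with TRIM58-WT. PTPRC went the other way in A549, at -2.78 in mock and -2.19 in TRIM58-WT, and was read on some arrays of each group. CD68 was read on every array, at 1.24 and 0.32 in A549 mock and TRIM58-WT and at 2.03 and 2.66 in HCC827. In HCC827 it was the only marker of the 11 with a mean above the 75th percentile. The summed signal of the 11 was 4.23 to 6.20 times the 75th percentile in A549 mock and 2.01 to 2.52 times in A549 TRIM58-WT, and 4.76 to 4.85 and 6.65 to 7.52 times in HCC827. The part of these differences in the results below was not tested.

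The start sites of the transporters that the results turn on are shown first. Of 10 genes, 8 had an entry in the RefSeq table of promoters (GRCh38.p14), which holds 250 bases before and 50 after each start. 3 motifs were searched on both strands. The first was TGATGNAA, the CARE that ATF4 binds with C/EBP partners, found in 3.62% of all 35116 promoters. The second was TGACNNNGC, the antioxidant response element (ARE) that NRF2 binds, found in 13.3%. The third was the E-box CACGTG, which MYC and related factors bind, found in 7.26%. In the windows of these genes no match of one motif overlapped a match of another, and a match is a description of letters, not a bound site. The 250 bases before each start are given 5′ to 3′ on the strand of the gene, with matches in capitals. SLC7A7 is shown because its signal had the largest fold of the set, with 2 of its 3 starts, and SLC7A5 and SLC3A2 because they encode the light and heavy chain of one carrier.
SLC7A7, upstream start, chr14:22819792-22820041 (minus strand): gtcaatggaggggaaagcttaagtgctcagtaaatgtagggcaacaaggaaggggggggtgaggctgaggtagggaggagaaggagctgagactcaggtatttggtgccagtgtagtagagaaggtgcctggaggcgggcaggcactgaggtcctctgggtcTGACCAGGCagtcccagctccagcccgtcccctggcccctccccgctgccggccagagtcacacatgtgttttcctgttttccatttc
SLC7A7, next start downstream, chr14:22815872-22816121 (minus strand): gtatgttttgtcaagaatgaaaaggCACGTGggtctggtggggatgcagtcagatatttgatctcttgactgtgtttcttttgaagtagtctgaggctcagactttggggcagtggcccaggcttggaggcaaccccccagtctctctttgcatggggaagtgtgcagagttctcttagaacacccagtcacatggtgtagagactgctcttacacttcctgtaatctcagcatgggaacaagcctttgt
SLC7A5, chr16:87869508-87869757 (minus strand): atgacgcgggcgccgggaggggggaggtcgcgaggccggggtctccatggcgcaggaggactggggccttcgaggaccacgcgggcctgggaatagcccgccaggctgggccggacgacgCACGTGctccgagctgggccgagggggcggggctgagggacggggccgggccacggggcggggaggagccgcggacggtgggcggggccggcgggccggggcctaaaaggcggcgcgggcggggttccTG
SLC3A2, chr11:62881449-62881698 (plus strand): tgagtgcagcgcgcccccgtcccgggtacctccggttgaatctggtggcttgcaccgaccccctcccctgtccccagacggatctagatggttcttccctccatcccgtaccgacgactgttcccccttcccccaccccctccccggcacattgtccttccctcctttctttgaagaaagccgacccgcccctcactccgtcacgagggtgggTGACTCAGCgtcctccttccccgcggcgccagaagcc
The capitals in the first SLC7A7 window are an ARE match that begins 88 bases before the start, and those in the second an E-box 225 bases before it. Its remaining start had no match. The SLC7A5 window held an E-box, and the final capital letters open an ARE match that runs past the start. SLC3A2 held an ARE match before the start shown, and the 50 bases after that start held a CARE match on the other strand. Its other 2 entries held none. CARE matches were also found in the windows of SLC7A1 and of 1 of 3 SLC1A5 starts, and the SLC38A2 window held none of the 3 motifs.

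SLC7A7 encodes the light chain y+LAT1, which exports arginine and lysine in exchange for neutral amino acids and sodium, and whose loss causes lysinuric protein intolerance. Its probe gave 3.49, 3.46, 3.58 and 2.64 on A549 mock arrays 1-1, 1-2, 2 and 3. On A549 TRIM58-WT arrays 1, 2 and 3 it gave -5.03, -4.65 and -4.63, none of them well above background. HCC827 lay in between and well above background throughout, with mock values of -1.26 and -1.45 and TRIM58-WT values of -0.45 and -0.24. Thus a transcript that was plainly measured in every A549 mock culture was at background in each of the 3 TRIM58-WT cultures, while in HCC827 both TRIM58-WT values lay above both mock values. The fitted difference in A549 was -8.00 (SE 0.29, 95% interval -8.70 to -7.30, n = 3 and 3), with an adjusted p of 0.000151 in limma's test over all probes. Because the TRIM58-WT group had only a bound, the signal is given as at least 58.0-fold lower, the mock mean of 3.23 being set against the lowest signal well above background in each TRIM58-WT array, -2.63 on average. The difference was -8.56 within slide 1 and -7.69 within slide 2, and -8.29 without mock 3. It shrank to -3.72 with normexp background correction, which adds an offset to each signal, and the methods' t-test gave an adjusted p of 0.0596. In HCC827 the difference was 1.01 (SE 0.16, n = 2 and 2), a fold of 2.01, with an adjusted p of 0.0798. The HCC827 change minus the A549 change was fitted at 9.01 (adjusted p = 5.44e-05), of which the A549 side is only bounded. With that side at its bound of -5.86, the difference was at least 6.87. The order of the 4 groups was A549 mock, HCC827 TRIM58-WT, HCC827 mock and A549 TRIM58-WT, with no overlap between neighbours.

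**Figure D1:**
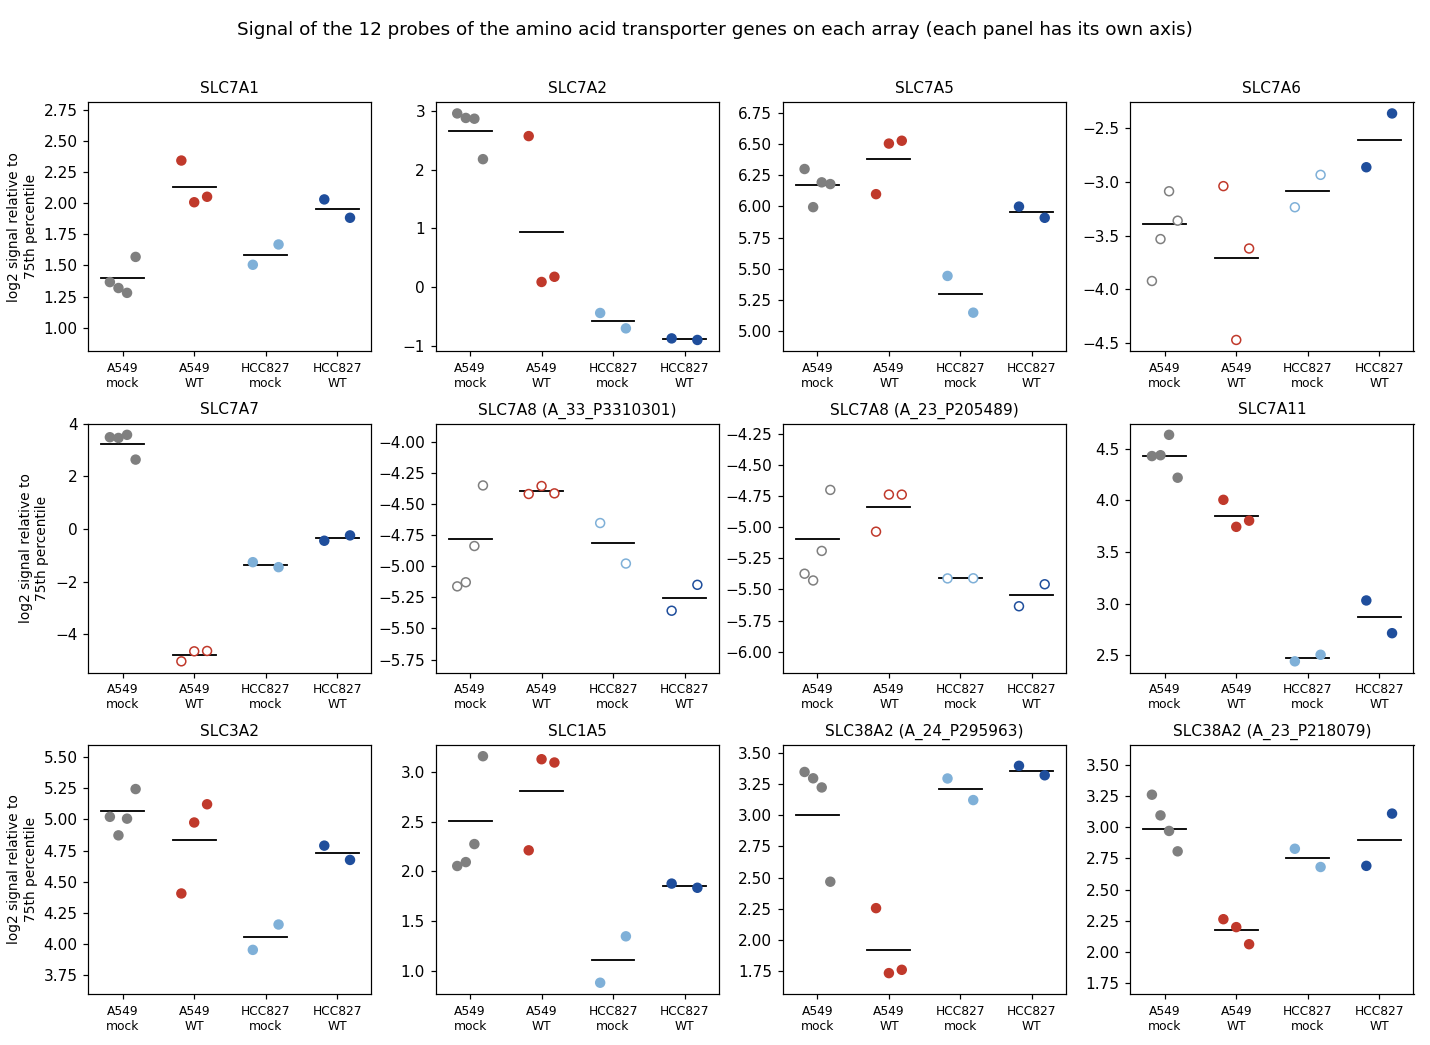
Signal of the 12 probes of the 10 transporter genes, one panel per probe, as log2 intensity relative to the 75th percentile of the array. Each point is 1 array (filled, well above background; open, not), and each black line is the mean of a group over its replicates (3, 3, 2 and 2, with the 2 arrays of A549 mock cell 1 averaged). SLC7A7 ran from 3.58 on an A549 mock array to -5.03 on an A549 TRIM58-WT array, and the SLC7A8 panels hold open points only.

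Genes with a pattern much like that of SLC7A7 were found by Pearson's correlation over the 10 replicates, among the brightest probes of 12802 genes. They were FAM110C (r = 0.996), PRRX2 (0.993), DOK4 (0.984) and FRMD3 (0.980). DOK4 is an adaptor of receptor tyrosine kinases. The 10 points share the same arrays and fall into 4 groups.

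SLC7A6 and SLC7A8 are the other light chains that carry large neutral or cationic amino acids. SLC7A6 encodes y+LAT2, with the same exchange as y+LAT1. Its probe was well above background on the 2 HCC827 TRIM58-WT arrays alone, at -2.86 and -2.36. On the HCC827 mock arrays it gave -3.24 and -2.93, neither of them well above background. The fitted difference of 0.47 (SE 0.23, adjusted p = 0.337) had a 95% interval that includes 0, so no fold is given. In A549 it ranged from -4.47 to -3.04 in TRIM58-WT and was at background on every array, so no fold is given there either. SLC7A8, the neutral amino acid carrier LAT2, was at background with both of its probes on all 11 arrays. A probe at background sets an upper limit to the signal and does not show that the transcript is missing. Thus SLC7A6, SLC7A7 and SLC7A8 were all at background in A549 TRIM58-WT, where SLC7A5 and SLC7A11 were the light chains read above it.

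SLC7A5 encodes LAT1, which brings in leucine and other large neutral amino acids in exchange for glutamine. Its probe gave 6.30, 5.99, 6.19 and 6.18 on the A549 mock arrays and 6.10, 6.50 and 6.53 on TRIM58-WT arrays 1 to 3. In HCC827 it gave 5.44 and 5.15 in mock against 5.999 and 5.91 in TRIM58-WT. The A549 groups overlapped, with a difference of 0.20 (95% interval -0.22 to 0.63) that was -0.17 after a median shift of the arrays. The HCC827 groups did not, with a difference of 0.66 (SE 0.16, adjusted p = 0.144). Its partner SLC3A2, the heavy chain, gave 5.02, 4.87, 5.01 and 5.24 in A549 mock against 4.41, 4.98 and 5.12 in A549 TRIM58-WT. In HCC827 it gave 3.95 and 4.16 in mock against 4.79 and 4.68 in TRIM58-WT. Light and heavy chain thus had fitted differences of 0.66 and 0.68 in HCC827, a fold of 1.58 and 1.60. In A549 that of SLC3A2 was -0.23 (95% interval -0.79 to 0.33), and only TRIM58-WT 1 lay below every mock array. Neither the HCC827 changes nor the differences between the lines passed the threshold (adjusted p of the difference 0.402 for SLC7A5 and 0.183 for SLC3A2).

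SLC7A11 encodes xCT, the light chain that imports cystine in exchange for glutamate and so feeds the synthesis of glutathione. Its probe gave 4.43, 4.44, 4.64 and 4.22 on the A549 mock arrays and 4.01, 3.74 and 3.80 in TRIM58-WT. Every A549 TRIM58-WT value lay below every mock value, with a difference of -0.58 (SE 0.18), a fold of 1.49 lower (adjusted p = 0.103). The difference had nearly the same size within each slide, -0.53 and -0.55. In HCC827 it gave 2.44 and 2.51 in mock against 3.03 and 2.72 in TRIM58-WT, again apart but in the other direction, with a difference of 0.40 (SE 0.17, adjusted p = 0.277). The HCC827 change minus the A549 change was 0.98 (adjusted p = 0.0885), and 1.08 without mock 3 (adjusted p = 0.0363). That difference was called in 2 of 22 alternatives.

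The cationic carriers SLC7A1 and SLC7A2 supply arginine. SLC7A1 (CAT1) gave 1.37, 1.32, 1.28 and 1.57 in A549 mock against 2.34, 2.01 and 2.05 in TRIM58-WT. In HCC827 it gave 1.51 and 1.67 in mock against 2.03 and 1.88 in TRIM58-WT. The TRIM58-WT values lay above the mock values in both lines, by 0.74 in A549 (SE 0.18, a fold of 1.67, adjusted p = 0.0522) and by 0.37 in HCC827 (adjusted p = 0.261). SLC7A2 (CAT2) gave 2.96, 2.89, 2.87 and 2.18 in A549 mock, and 2.58, 0.09 and 0.18 in TRIM58-WT 1, 2 and 3. The TRIM58-WT cultures thus split, with culture 1 among the mock values and cultures 2 and 3 well below, so the fitted -1.71 had an SE of 0.68 (adjusted p = 0.182). Without TRIM58-WT 1 it was -2.53 (adjusted p = 0.00953). That fit rests on TRIM58-WT 2 and 3, whose arrays differed by a median of only 0.11. The difference was -0.34 within slide 1 and -2.40 within slide 2, and it was called in 3 of 22 alternatives. In HCC827 SLC7A2 gave -0.44 and -0.70 in mock against -0.88 and -0.90 in TRIM58-WT, a difference of -0.32 (adjusted p = 0.330).

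SLC1A5 and SLC38A2 are the carriers outside the SLC7 family. SLC1A5 (ASCT2) exchanges glutamine with other small neutral amino acids. Its A549 values fell into 2 levels that did not follow the groups. They were 2.05, 2.09 and 2.28 on mock arrays 1-1, 1-2 and 2 and 2.21 on TRIM58-WT 1. On mock 3, TRIM58-WT 2 and TRIM58-WT 3, the 3 arrays of low overall signal, they were 3.16, 3.13 and 3.10. The A549 groups overlapped, with a difference of 0.31 (95% interval -0.60 to 1.22), which was 0.04 with those 3 arrays left out and -0.06 after a median shift. In HCC827 SLC1A5 gave 0.88 and 1.35 in mock against 1.88 and 1.83 in TRIM58-WT, a difference of 0.74 (SE 0.20, adjusted p = 0.164). On HCC827 mock 1 its pair of spots disagreed, one reading 0.20 and the other 1.34, near the 1.35 of mock 2. On the other arrays the spots of this probe differed by 0.03 to 0.29.

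**Figure D2:**
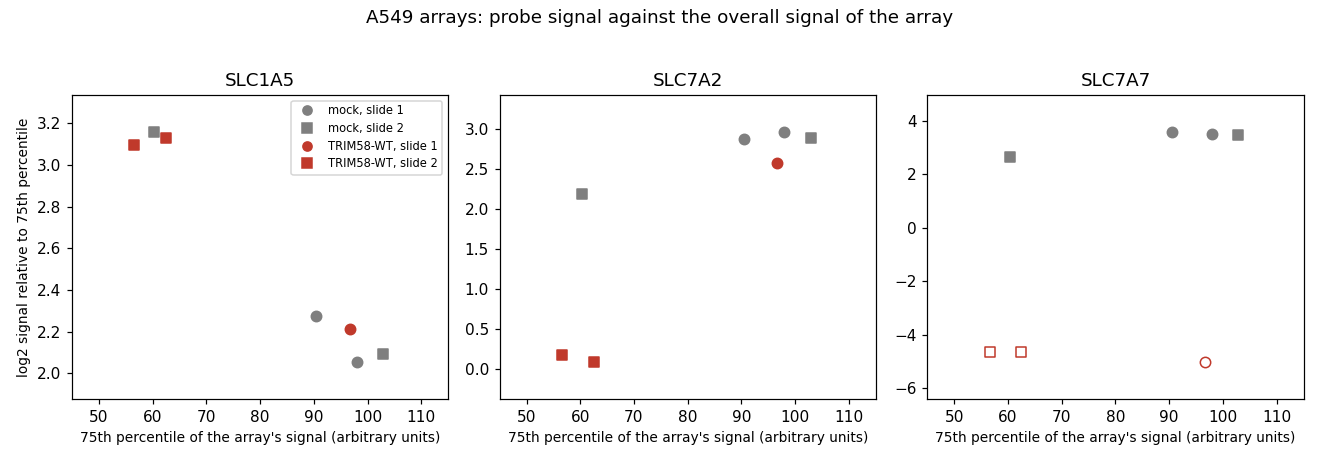
Signal of 3 probes on the 7 A549 arrays (y axis, log2 intensity relative to the 75th percentile) against the 75th percentile itself (x axis, intensity units). Grey marks mock and red TRIM58-WT, circles slide 1 and squares slide 2, and open points are not well above background. SLC1A5 was high on the 3 arrays of low overall signal whatever the group, SLC7A2 was low on 2 of them, and SLC7A7 followed the group on every array.

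SLC38A2 (SNAT2) takes up small neutral amino acids with sodium and is a known target of the amino acid response. It was read by 2 probes. The first, A_23_P218079, gave 3.26, 3.10, 2.97 and 2.81 in A549 mock against 2.26, 2.20 and 2.06 in TRIM58-WT. The second, A_24_P295963, gave 3.35, 3.30, 3.22 and 2.47 in mock against 2.26, 1.73 and 1.76 in TRIM58-WT. With both probes every A549 TRIM58-WT value lay below every mock value. The differences were -0.81 (SE 0.17, adjusted p = 0.0368) and -1.09 (SE 0.29, adjusted p = 0.0689), so neither met both the p and the 2-fold threshold. Within slides they were -0.85 and -0.82 for the first probe and -1.03 and -1.14 for the second. Without mock 3 the second probe came to -1.36 (adjusted p = 0.0192) and met both. Mock 3 was the only dim mock array, and the dim TRIM58-WT 2 and 3 stayed in that fit. Over 22 alternatives the second probe was called in A549 in 6 and the first in 0. In HCC827 the first probe gave 2.83 and 2.68 in mock against 2.69 and 3.11 in TRIM58-WT, and the second 3.30 and 3.12 against 3.40 and 3.32. Those differences were 0.15 for each probe, with intervals that include 0. The HCC827 change minus the A549 change was 0.96 (adjusted p = 0.0980) and 1.24 (adjusted p = 0.140), and without mock 3 both passed (adjusted p = 0.0496 and 0.0181). Over 22 alternatives that difference was called in 1 for the first probe and in 2 for the second.

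Counted together, a probe was called when its adjusted p was under 0.05 and its fold at least 2. In A549, 9 of the 12 probes could be tested and 1 was called, SLC7A7, lower. Over all 16919 probes tested in A549, 6.92% were called and 3.43% were called lower. The A549 groups did not overlap for 5 of the 9 probes, against 31.0% of all probes tested. In HCC827, 10 probes were tested and 0 were called by limma, with 4 at an unadjusted p under 0.05 and 0 called by the methods' t-test. Over all probes 0.885% were called there. Of all genes tested there by their brightest probe, 2648 of 12165 had an unadjusted p under 0.05. The HCC827 groups did not overlap for 9 of 10 probes, against 56.7% of all, with 2 values a group. Of the differences between the lines 1 of 10 was called, at an adjusted p under 0.05 alone, against 3.85% of all probes. As the members were chosen by these values, nothing is read from the counts. The median over the tested probes was -0.58 in A549 and 0.44 in HCC827, beside 0.06 and 0.01 over all probes.

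**Figure D3:**
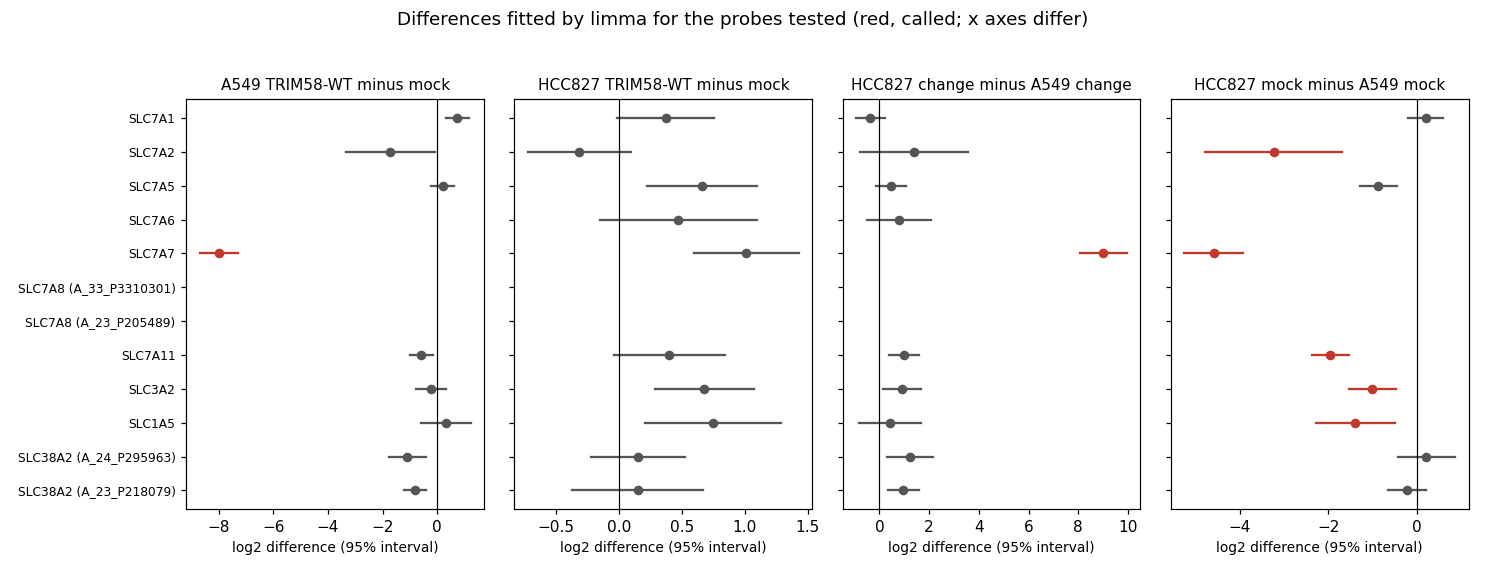
Log2 differences with 95% intervals from limma for the probes tested in A549 (TRIM58-WT minus mock), in HCC827, for the HCC827 change minus the A549 change, and for HCC827 mock minus A549 mock. Red marks called probes, and the x axes differ. SLC7A7 stands at -8.00 in A549 and 1.01 in HCC827, and 5 genes are called lower in HCC827 mock cells than in A549 mock cells.

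The mock cells of both lines differed in these carriers. A549 mock 3, on which the TRIM58 probe was read well above background, is among them. HCC827 mock cells had lower signals than A549 mock cells for SLC7A7 (-4.58, SE 0.29, adjusted p = 6.52e-06), SLC7A2 (-3.23, SE 0.67, adjusted p = 0.00504) and SLC7A11 (-1.96, SE 0.19, adjusted p = 6.50e-05). SLC1A5 (-1.39, adjusted p = 0.0191) and SLC3A2 (-1.01, adjusted p = 0.00777) were also called lower, and SLC7A5 was lower by less than 2-fold (-0.88, adjusted p = 0.00493). Within slide 1, where both mock groups had 2 arrays, the differences were -4.89 for SLC7A7, -3.49 for SLC7A2, -2.06 for SLC7A11, -1.05 for SLC1A5 and -0.96 for SLC3A2. The value of SLC1A5 includes the low spot on HCC827 mock 1, and without that array it was -1.16 (adjusted p = 0.138). That of SLC3A2 was under 2-fold without A549 mock 3 (-0.92, adjusted p = 0.0204). SLC7A1 (0.19) and SLC38A2 (0.20 and -0.23) differed by amounts whose intervals include 0. In all, 5 of 9 probes were called, each lower, against 30.1% called and 14.0% called lower over all 19480 probes tested between the mock groups. The mock groups did not overlap for 6 of the 9, against 69.7% of all. Thus the heavy chain and each of its light chains read above background in both mock groups had the lower signal in HCC827.

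Lists of other genes of amino acid supply were read by the brightest probe of each gene. Over all genes by this measure, 7.93% were called in A549, 1.07% in HCC827, 4.61% for the difference between the lines and 31.9% between the mock groups. The 7 remaining genes of the SLC7 and SLC3 families, among them the cystine and dibasic carrier pair SLC7A9 and SLC3A1, were too dim to be tested in A549. Of 23 other amino acid transporters 11 were tested there and 1 was called, SLC38A9, the lysosomal arginine sensor that signals to mTORC1. It fell from 2.28 ± 0.32 (SD, n = 3) to 0.68 ± 0.05 (n = 3), a log2 change of -1.60 (adjusted p = 0.00837). In HCC827, 1 of 14 was called, SLC43A2, a leucine carrier of the LAT4 type that works without exchange. It fell from -0.47 ± 0.14 to -1.96 ± 0.02 (n = 2 each), a log2 change of -1.49 (adjusted p = 0.0437), and was called in 0 of the 4 fits with 1 HCC827 replicate left out.

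Of 20 genes of ATF4 and the amino acid response 16 were tested in A549, where ATF3 alone was called, lower, from 1.41 ± 0.57 to -0.41 ± 0.54 (n = 3 each; -1.82, adjusted p = 0.0382). That call was kept in 1 of the 6 fits with 1 A549 replicate left out. The list had a median of -0.14 in A549, beside 0.03 over all genes tested. In HCC827, 0 of 18 were called by limma, 11 had an unadjusted p under 0.05 (2648 of 12165 over all genes) and 15 were above 0, with a median of 0.53 beside 0.01 over all genes. The HCC827 change exceeded the A549 change for 17 of 18 (6190 of 12811 over all genes). A median shift of the arrays moved the median of this difference over all probes from -0.06 to 0.34. For CEBPG (1.26, adjusted p = 0.0154) and DDIT3 (1.75, adjusted p = 0.0112) the difference was called. DDIT3 encodes CHOP, a transcription factor of the stress response, and CEBPG a partner of ATF4. DDIT3 went from -0.78 to -1.56 in A549 and from 1.32 to 2.30 in HCC827. Among the other transporters, the difference was called for SLC38A9 (1.33, adjusted p = 0.0402) and for the glycine carrier SLC6A9 (1.86, adjusted p = 0.00476). SLC6A9 had a change of -0.91 in A549 (adjusted p = 0.0240), under 2-fold, and of 0.95 in HCC827 (adjusted p = 0.0733). These genes and GOT1 below, 5 in all, were named for this difference after their values had been seen. With 1 replicate of either line left out in turn the call was kept in 10 of 10 fits for SLC6A9, 8 for DDIT3, 6 for CEBPG, and 2 each for SLC38A9 and GOT1.

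Of the genes downstream of uptake, CTH and GOT1 were called in A549. CTH makes cysteine from cystathionine and so can stand in for imported cystine. It fell from 2.37 ± 0.70 to 0.40 ± 0.25 (n = 3 each; -1.97, adjusted p = 0.0265), the 1 called of 12 genes of serine, proline and cysteine synthesis, of which 10 were above 0. GOT1, the cytosolic aspartate aminotransferase, fell from 4.55 ± 0.25 to 3.41 ± 0.12 (-1.15, adjusted p = 0.0179), the 1 called of 4 genes tested of glutamine and glutamate metabolism. Its change in HCC827 was 0.15, and the difference between the lines was 1.29 (adjusted p = 0.0365). CTH and GOT1 were each called in 2 of the 6 fits with 1 A549 replicate left out, and SLC38A9 in 3. By limma, 0 of 19 aminoacyl-tRNA synthetases, 0 of 9 glutathione genes and 0 of 13 genes of amino acid sensing were called in A549. At an unadjusted p under 0.05 there were 1, 4 and 2, beside 3094 of 11183 over all genes. In HCC827 these counts were 0 of 19, 0 of 9 and 0 of 16, with 2, 0 and 5, beside 2648 of 12165 over all genes.

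**Figure D4:**
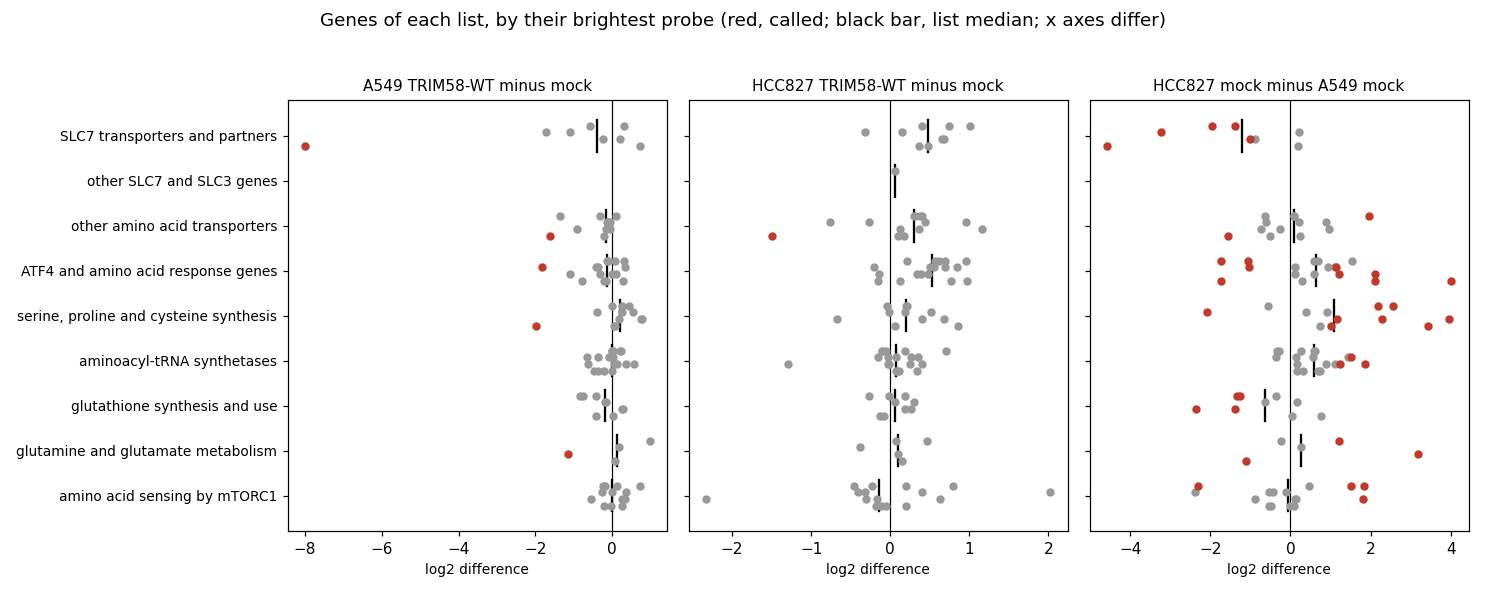
Log2 differences of the genes of each list, read by the brightest probe of each gene, in A549 and HCC827 (TRIM58-WT minus mock) and between the mock groups (HCC827 minus A549). Each point is 1 gene tested, red marks called genes, black bars are list medians, and the x axes differ. In A549 the called genes outside the SLC7 set are SLC38A9, ATF3, CTH and GOT1, each lower.

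Between the mock groups these lists moved in different directions. The glutathione genes had 4 of 9 called, each lower in HCC827, with a median of -0.65 beside 0.06 over all genes. They were GGT1 (-2.35), GSTP1 (-1.40), GSR (-1.34) and GCLC (-1.25), the last being the catalytic subunit of the enzyme that starts glutathione synthesis. Of 12 genes of serine, proline and cysteine synthesis, 7 were called higher and 1 lower in HCC827, with a median of 1.09. CBS (3.96, adjusted p = 0.0102) and CTH (3.42, adjusted p = 0.000117), which together make cysteine from homocysteine, were among the higher ones. CTH stayed called in 5 of 5 fits with 1 mock replicate left out and CBS in 3, the exceptions being those without either HCC827 mock replicate. So HCC827 mock cells had lower signal of the cystine carrier SLC7A11 and higher signal of both transsulfuration enzymes than A549 mock cells. These 6 genes were named after their values had been seen. The ATF4 list had 5 called higher and 4 lower of 18, and the synthetases 3 called higher of 19.

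The technical error behind the single values, read from the A549 mock 1 arrays and from pairs of spots, was small beside the larger differences. Among the 9 probes well above background on both arrays of A549 mock cell 1, these arrays differed by 0.01 to 0.31. The median difference between a pair of spots of one probe was 0.04 to 0.17 for the probes with 2 spots. The fitted differences of SLC7A5, SLC3A2 and SLC1A5 in A549 were within or near this range. The largest difference between a pair of spots was 1.14, for SLC1A5 on HCC827 mock 1, above its fitted HCC827 difference of 0.74. No HCC827 culture was read on more than 1 array.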

How the data were processed

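RNA of the 10 cultures had been labelled with Cy3 and hybridised to 11 1-colour Agilent human arrays, 2 of them for A549 mock 1. The authors deposited the scanner's intensity values per spot, extracted with Agilent Feature Extraction 11.5.1.1 per the file headers (10.7 in the submitters' processing notes), background-subtracted and not scaled between arrays. Their deposited table of log2 values, in which a baseline had been subtracted from each probe, was not used here.

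Outlier and control spots were left out, spots of a probe averaged, and log2 intensities taken relative to the 75th percentile over 42405 probes, with R 4.3.3. Tests by lmFit and eBayes (limma 3.58.1) covered the probes that some compared group had well above background throughout, with Benjamini-Hochberg adjustment over all probes tested, in each line separately and, for the difference between the lines and between the mock groups, in 1 fit of all 4 groups. The step was tested on simulated data. Of the probes, 27241 were named through RefSeq accessions (GRCh38.p14). Probe coordinates are not given, as the array follows an older assembly. The precision is limited by the number of arrays.

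The members and lists were chosen with earlier results of these data known. Genes named are all members, the first 5 of each list called in either line, the 5 most correlated with the member of largest change in A549 (1 is not reported here), and those said to have been named later. The alternatives changed the normalization (quantile, median shift), the background correction (normexp, offset 50) or the filter. Others had mock arrays kept separate, all groups in 1 fit, slide or replicate number as a block, Welch's t-test, or each replicate left out. Replicate numbers were not taken as pairs in the main fits. Left out after seeing the data were the 3 dim arrays, and TRIM58-WT 2 and 3 were averaged. Python 3.11.15 with matplotlib 3.10.9 drew the figures.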

Additional observations from a re-analysis of the deposited data

Results flagged for a closer look

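SLC7A7 differed between the lines by the test of the difference itself. The HCC827 change minus the A549 change was 9.01 on the log2 scale (adjusted p = 5.44e-05 in limma's fit of all 4 groups). All 3 A549 TRIM58-WT arrays lay below all A549 mock arrays, and both HCC827 TRIM58-WT arrays lay above both mock arrays. Groups did not overlap for 31.0% of all probes tested in A549 and for 56.7% in HCC827. The HCC827 change by itself was 1.01 and was not called (adjusted p = 0.0798 by limma). The A549 side of this value rests on signals not well above background, and with that side at its bound the difference was at least 6.87. The gene was chosen with these values in view.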

How the results depend on the processing

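The 4 counts of called probes were 1 in A549, 0 in HCC827, 1 for the difference between the lines and 5 between the mock groups. SLC7A7 stayed called in A549 in 20 of 21 alternatives, with differences from -8.55 to -3.72, the last under normexp with its offset, and for the difference between the lines in 21 of 21. The exception was Welch's t-test, which the study's methods name for 2 groups in general and not for its arrays. It gave an adjusted p of 0.0596 for SLC7A7, with 0 member probes and 24 probes in all called in A549, against 1171 by limma. With a filter on every array SLC7A7 was no longer tested in A549, since it was at background there, and the counts were 0 in A549, 1 in HCC827 and 0 for the difference. The median shift moved the median of all probes in A549 from 0.06 to -0.31, and the share of higher calls from 50.5% to 25.6%. With it the counts were 3 in A549, 1 in HCC827 and 3 between the mock groups, and the signs of SLC7A5 (-0.17) and SLC1A5 (-0.059) in A549 and of the SLC7A1 difference (0.032) turned. The count for the difference was 2 with quantile normalization and 2 with normexp, under which the first SLC38A2 probe turned to -0.094 in HCC827 and 0.030 between the mock groups. Mock arrays 1-1 and 1-2 kept separate gave 2 in A549 and 2 for the difference, all groups in 1 fit gave 2 in A549, and slide as a block gave 3. With 1 replicate left out in turn, the counts ranged from 1 to 2 in A549, 0 to 0 in HCC827, 1 to 4 for the difference (4 without mock 3) and 4 to 5 between the mock groups. The only signs that turned were those of SLC38A2, the second probe between the mock groups (-0.064 to 0.36) and the first in HCC827 (-0.064 to 0.36). Leaving out the 3 dim arrays, chosen after seeing the data, left 1 TRIM58-WT array, assumed to vary like the other groups, and gave 3 in A549 and 3 for the difference, with SLC7A5 at -0.072. Of 689 values of single members under the alternatives, 649 kept direction and side of the threshold. The cause of these changes was not tested.

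The replicate numbers were not taken as pairs in the main fits. Deviations of same-numbered A549 samples correlated at 0.50, -0.42 and 0.50, and those of differently numbered ones at -0.59 to 0.57. In HCC827 they correlated at 0.08 for the same number and -0.08 for different ones. With 2 replicates a group these are equal in size by construction, so they cannot decide whether the samples are paired. With the number as a replicate block, 1 member probe was called in A549 and 0 in HCC827.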
